A study of Mus musculus with 8 samples.

Results

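The vessels of the neonatal mouse uterus were followed through 37 genes that mark or act on blood and lymphatic endothelium, chosen by symbol from the annotation of the deposited comparison table and joined to the raw counts by Entrez identifier. These were 32 genes of blood vessels, their ligands and receptors, and 5 lymphatic genes, among 27179 genes counted in each library. The 32, called blood vessel genes below, also hold genes with a part in lymphatic vessels, such as *Vegfc*, *Vegfd* and *Mmrn1*. RNA-seq was performed on whole uteri at postnatal day 10 (PD10), with 4 control mice and 4 *Ezh2* *Amhr2*-Cre cKO mice and one library per mouse. Control mice were *Ezh2* f/f without Cre, and cKO mice were *Ezh2* f/f with *Amhr2*-Cre (Acre in the labels), so every mouse carried the floxed *Ezh2* alleles. Mice were kept on a mixed C57BL/6/129SvEv background. *Amhr2*-Cre is active in the mesenchyme around the Müllerian duct, from which uterine stroma and muscle derive, and the control mice did not carry it. The question asked of the vascular genes is whether their levels differed between cKO and control uteri.

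Endothelial cells line blood and lymphatic vessels. Growth factors of the VEGF family, released largely by surrounding cells, act on the tyrosine kinase receptors FLT1, KDR and FLT4 with neuropilins as co-receptors, and angiopoietins act on TEK, whose relative is TIE1. Blood endothelium is held together by cadherin and claudin junctions and carries surface proteins such as PECAM1, whereas lymphatic endothelium is set apart by the transcription factor PROX1 and by LYVE1, PDPN, FLT4 and CCL21. In the neonatal uterus, vessels grow with the stroma and muscle layers. Several of the genes are also made by other cells: *Vegfa*, *Vegfc*, *Vegfd*, *Angpt1*, *Nrp1*, *Nrp2* and *Pdpn* are not restricted to endothelium.

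Before the comparison, 3 sets of reference sequence show what the counts and the promoters of key genes rest on. The coding sequence of *Ccl21a*, the lymphatic chemokine, has 402 bases and differs at 2 of them (99.5% identity) from each of the copies *Ccl21b*, *Gm10591*, *Gm13304* and *Gm21541* on the same chromosome of GRCm38. The differences are T84A and C194T, counted from 1 at the A of the start codon, with the base of *Ccl21a* first. The GENCODE M21 transcripts read as follows over 41 bases around each difference, with the differing base in capitals.
Ccl21a, bases 64 to 104: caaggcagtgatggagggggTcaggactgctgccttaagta
Ccl21b, bases 64 to 104: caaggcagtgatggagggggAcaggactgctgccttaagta
Ccl21a, bases 174 to 214: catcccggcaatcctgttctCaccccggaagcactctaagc
Ccl21b, bases 174 to 214: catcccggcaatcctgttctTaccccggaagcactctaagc
The other 3 copies carry the letters of *Ccl21b* in both windows, so a read that spans neither position matches all 5 genes in this coding sequence.

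*Vegfd*, the growth factor with the larger of the 2 called changes, and *Tie1*, an endothelial receptor, are shown by the 250 bases before the RefSeq start of each gene in GRCm38.p6. Capitals mark GGAAG or its reverse complement CTTCC, letters around the GGAA core that ETS factors such as ERG recognise, searched on both strands as the only motif. The *Vegfd* window is chrX:164373272-164373521 on the plus strand and the *Tie1* window is chr4:118489850-118490099 on the minus strand, both printed along the strand of the gene.
Vegfd: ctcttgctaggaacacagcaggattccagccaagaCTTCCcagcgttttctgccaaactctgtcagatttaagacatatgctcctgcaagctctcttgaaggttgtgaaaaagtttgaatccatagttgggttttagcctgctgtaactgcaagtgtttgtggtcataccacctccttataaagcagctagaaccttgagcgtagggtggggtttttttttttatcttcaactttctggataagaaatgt
Tie1: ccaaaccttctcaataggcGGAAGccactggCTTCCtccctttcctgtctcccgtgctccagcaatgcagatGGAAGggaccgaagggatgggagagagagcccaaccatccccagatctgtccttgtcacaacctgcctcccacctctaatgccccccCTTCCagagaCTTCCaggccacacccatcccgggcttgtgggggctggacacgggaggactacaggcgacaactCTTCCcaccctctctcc
The *Vegfd* window held 1 match and the *Tie1* window held 6. Of the 25 endothelial genes with a RefSeq promoter entry, 20 (80.0%) held at least 1 match in the 250 bases, against 66.9% of 27025 genes, and no test was made of this difference. A match is a description of letters and not a binding site.

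*Ezh2*, the targeted gene, did not separate the groups. It measured 49.4, 40.5, 54.7 and 35.4 CPM (counts scaled to library size with TMM factors) in control uteri 1 to 4 and 30.4, 38.0, 40.7 and 38.0 CPM in cKO uteri 1 to 4. The groups overlapped, and the log2 fold change of -0.29 ± 0.13 (SE) did not pass edgeR's quasi-likelihood test (Benjamini-Hochberg adjusted p = 0.247). The counts are of the whole gene and not of its floxed exons, so the labels could not be checked from them. Totals were 25287141 to 36685807 counts per library, at which 3 counts, the upper limit that a count of 0 allows, correspond to 0.0823 to 0.116 CPM (counting error only). The replicates came from separate mice. One difference among libraries recurs below. The summed level of 14 adipocyte genes was 61.3 to 86.9 CPM in the controls, 186, 332 and 191 CPM in cKO 1, 2 and 3, and 64.6 CPM in cKO 4. *Adipoq*, the adipocyte hormone, was at 11.7, 23.7 and 14.4 CPM in cKO 1 to 3, at 0.035 CPM in cKO 4 and at most at 0.387 CPM in the controls. *Plin1*, of the lipid droplet, was at 9.67, 16.5 and 6.22 CPM in cKO 1 to 3, at 0.07 CPM in cKO 4 and at 0 to 0.348 CPM in the controls. Results are therefore given with all libraries and, for the set and for some of the genes, also without cKO 4 or with cKO 4 alone against the controls.

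Of the vascular genes, 2 passed the test and both were higher in cKO uteri. These were *Vegfd*, which rose 1.57-fold, and *Plvap*, which rose 1.34-fold. Of the 37 genes, 36 passed the filter on low counts (CPM over 0.2 in at least 4 libraries), and *Ccl21a* did not. The 2 called genes are 5.56% of the 36, next to 5.34% of all 16658 genes tested that were called in either direction, with 2.62% called higher and 2.71% called lower. By edgeR the share called was thus near that of all genes. DESeq2 and limma-voom called the same 2 of the 36 and no other, next to 9.04% and 4.98% of all genes, so that by DESeq2 the share was below that of all genes. None had a fold change over 2, a size that together with the adjusted p was met by 1.3% of all genes. The log2 fold change was above 0 in 28 of the 36 genes and below 0 in 8, against 50.1% of all genes above 0, and its median was 0.16 against 0.00 for all genes tested. At an unadjusted p under 0.05, 11 of the 36 were higher and 2 were lower, next to 11.4% and 9.86% of all genes. The same fit without cKO 4 called 11 of the 36 genes, all higher (30.6%, next to 10.7% of all genes): *Pecam1*, *Tie1*, *Cldn5*, *Vegfa*, *Vegfd*, *Aplnr*, *Egfl7*, *Robo4*, *Erg*, *Plvap* and *Flt4*. The choice of cKO 4 was made with its values seen. It was the lowest cKO uterus in 26 of the 36 genes, so leaving it out raises most of them. Calls without cKO 4, here and below, are therefore a description and no independent test. With cKO 4 alone against the controls none was called, next to 0.228% of all genes (1 of the 36 was higher and 1 lower at an unadjusted p under 0.05), 8 of 36 were above 0 and the median was -0.09; this fit takes the spread of the controls for the lone cKO uterus. Because RNA came from whole uteri, fewer or more endothelial cells and less or more RNA per cell cannot be told apart.

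**Figure D1:**
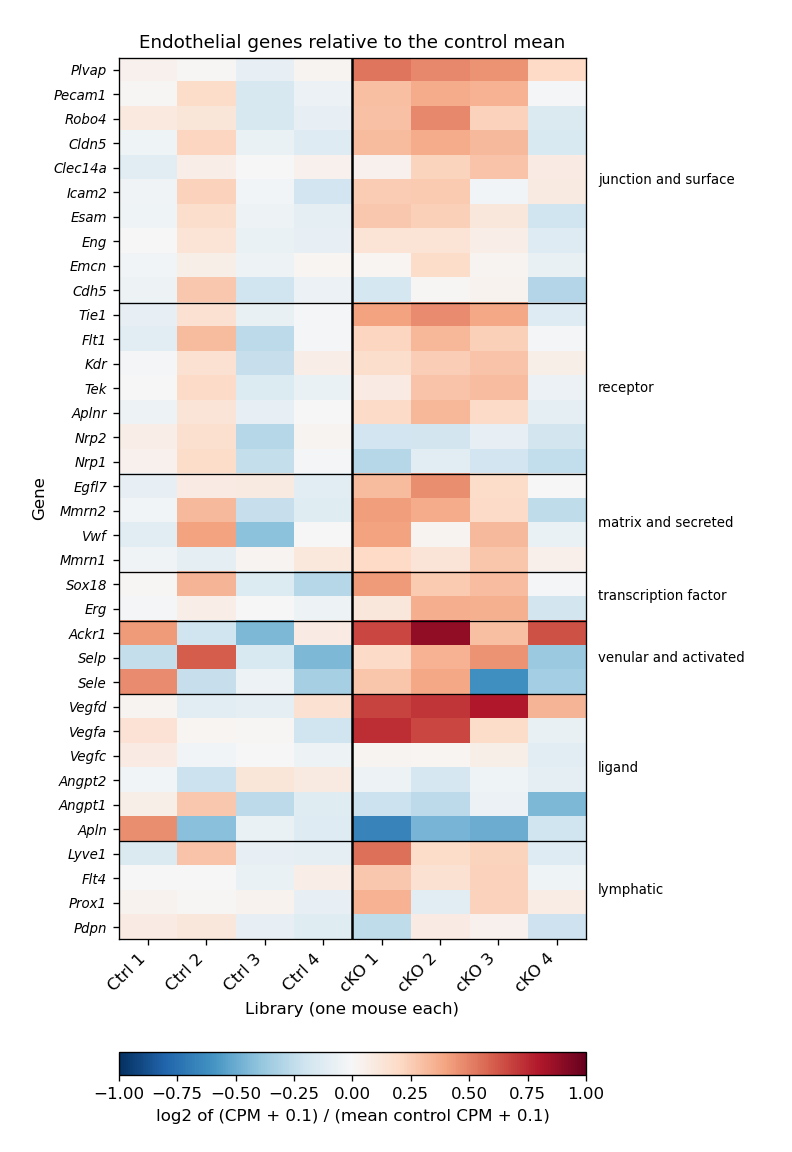
Level of 36 endothelial genes (rows, grouped by role) in 4 control and 4 cKO libraries (columns), as the log2 ratio of CPM to the mean of the controls with 0.1 added to both (colour, from -1 to 1). Most rows are red in cKO 1 to 3, while cKO 4 was the lowest of the cKO libraries in 26 of the 36 rows.

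The libraries of the cKO group were unlike each other in these genes. Uterus cKO 4 had the lowest level of the 4 cKO uteri in 26 of the 36 genes, while it was lowest in 29.6% of all genes tested. In cKO 1, 2 and 3, 21, 22 and 16 of the 36 genes lay above the highest control, whereas in cKO 4 this held for 5 genes and 14 lay below the lowest control. Over all genes tested, 28.9%, 28.1%, 27.3% and 20.3% lay above the highest control in cKO 1 to 4, and 22.3% lay below the lowest control in cKO 4. In 13 of the 36 genes cKO 1 to 3 all lay above every control, next to 12.2% of all genes tested. Among the controls, Ctrl 2 was the highest in 24 of the 36 genes, next to 33.4% of all genes tested.

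**Figure D2:**
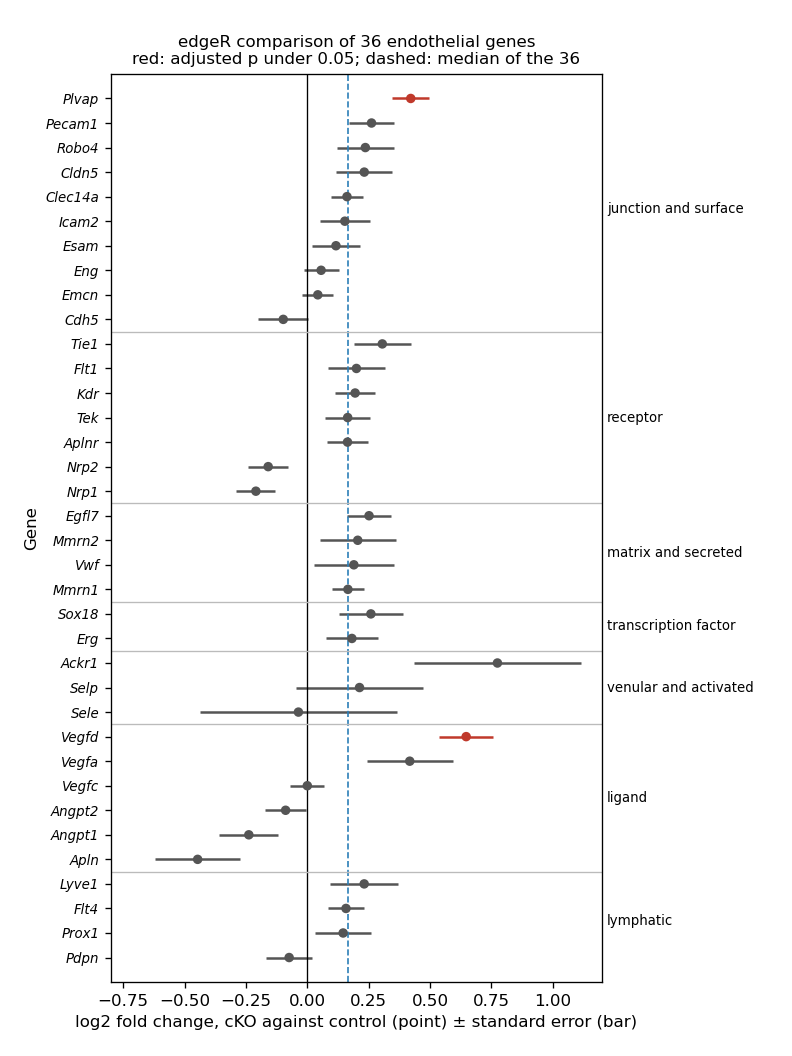
Log2 fold change of each of the 36 genes in cKO against control uteri (points) with its standard error (bars), from edgeR on 4 against 4 libraries, grouped by role. *Vegfd* (0.65) and *Plvap* (0.42), in red, passed an adjusted p of 0.05, and the dashed line marks the median of 0.16.

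Among the 6 ligands, *Vegfd* rose and the others did not pass the test. *Vegfd* encodes a secreted growth factor that acts on FLT4, the receptor of lymphatic endothelium. It measured 11.8, 10.8, 10.8 and 12.9 CPM in the controls and 18.6, 19.1, 20.3 and 14.7 CPM in the cKO uteri. Every cKO uterus lay above every control, and cKO 4 was the nearest to them. The log2 fold change was 0.65 ± 0.11 (SE, adjusted p = 0.00429), and leaving out any one library gave 0.58 to 0.74 with the call kept in all 8 fits. Without cKO 4 it was 0.74 (adjusted p = 0.000842), and in cKO 4 alone against the controls 0.35 ± 0.15 (adjusted p = 0.681). *Vegfd* lies at chrX:164373522-164402650, and its neighbour *Pir* did not pass the test (0.18 ± 0.12, adjusted p = 0.403).

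*Vegfc*, the other lymphatic growth factor of the family, was close between the groups. It measured 26.0, 24.1, 24.5 and 23.7 CPM in the controls and 25.1, 25.0, 25.6 and 22.7 CPM in the cKO uteri. The groups overlapped, and the interval of the log2 fold change (2 SE each side) ran from -0.14 to 0.14. *Vegfa*, the main growth factor of blood vessels, measured 105, 96.5, 95.7 and 82.6 CPM in the controls and 159, 151, 108 and 90.0 CPM in the cKO uteri. The cKO uteri spread widely, with cKO 1 and 2 far above the controls and cKO 4 within their range, and the log2 fold change of 0.42 ± 0.17 did not pass the test (adjusted p = 0.213). Without cKO 4 it was 0.55 (adjusted p = 0.0264).

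*Apln*, the ligand of the apelin receptor and a product of tip cells, had the lowest log2 fold change of the 36 genes, which did not pass the test. It measured 67.0, 36.5, 46.5 and 44.5 CPM in the controls and 30.6, 35.3, 34.5 and 42.4 CPM in the cKO uteri. Ctrl 1 stood well above the other controls and the groups overlapped. The log2 fold change of -0.45 ± 0.17 (adjusted p = 0.179) was -0.25 without Ctrl 1. *Angpt1*, the activating ligand of TEK made by perivascular cells, stood at 18.0 ± 2.90 CPM (SD, n = 4) in the controls and 15.2 ± 1.70 CPM in cKO uteri (-0.24 ± 0.12, adjusted p = 0.274). *Angpt2*, the ligand of TEK released by endothelium itself, stood at 23.1 ± 2.39 and 21.8 ± 0.863 CPM (-0.09 ± 0.08, adjusted p = 0.576). Both overlapped between the groups.

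**Figure D3:**
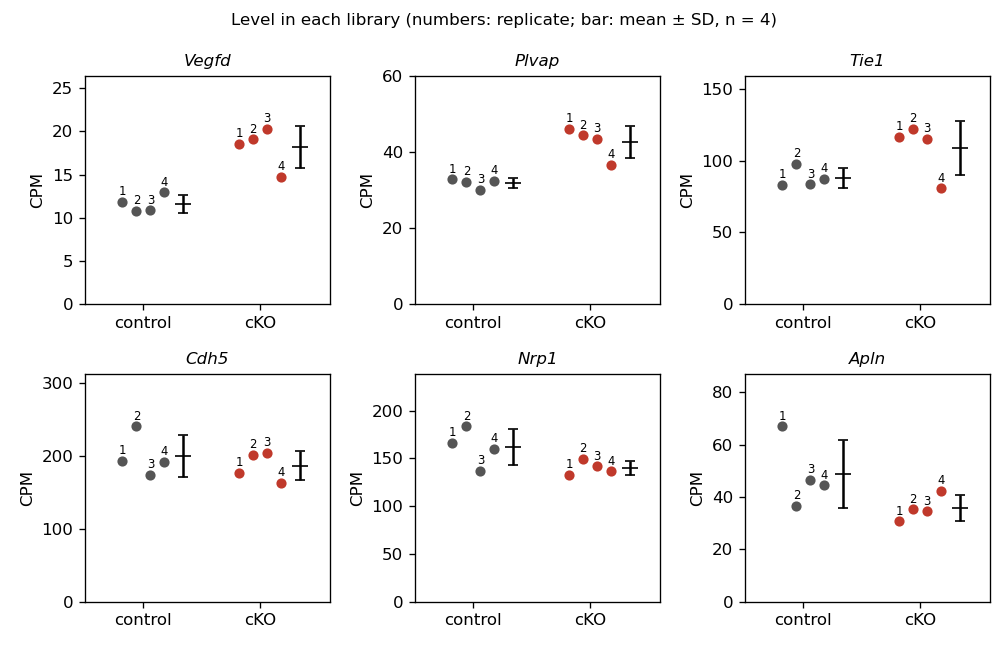
CPM of *Vegfd*, *Plvap*, *Tie1*, *Cdh5*, *Nrp1* and *Apln* in each control and cKO library (points, numbered by replicate), with the mean ± SD of the 4 libraries beside them. The groups separate in *Vegfd* and *Plvap*, and in *Tie1* cKO 1 to 3 lie at 115 to 123 CPM while cKO 4 (80.8 CPM) lies below the controls.

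None of the 7 blood vessel receptors passed the test, while 2 were higher and 1 lower at an unadjusted p under 0.05 (next to 11.4% and 9.86% of all genes). Of their log2 fold changes 5 were above 0 and 2, those of the neuropilins, below 0. *Tie1*, the orphan relative of TEK, measured 83.3, 98.1, 83.7 and 87.6 CPM in the controls and 117, 123, 115 and 80.8 CPM in the cKO uteri. The level in cKO 1 to 3 was above all controls and that in cKO 4 below them all, and the log2 fold change of 0.31 ± 0.12 gave an adjusted p of 0.16 by edgeR. Without cKO 4 it was 0.42 (adjusted p = 0.00274), and in cKO 4 alone -0.12 (adjusted p = 0.951). *Tek* stood at 62.8 ± 6.31 and 70.3 ± 8.47 CPM in control and cKO uteri (0.16 ± 0.09, adjusted p = 0.326).

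The VEGF receptors had similar log2 fold changes and overlapped between groups. *Kdr*, the main signalling receptor for VEGFA, measured 133, 149, 114 and 139.8 CPM in the controls and 151, 159, 163 and 139 CPM in the cKO uteri, so that cKO 4 was within the controls (0.19 ± 0.08, adjusted p = 0.185). *Flt1*, a decoy receptor for VEGFA, measured 29.2, 39.4, 26.4 and 31.3 CPM in the controls and 36.7, 39.7, 37.3 and 31.1 CPM in the cKO uteri (0.20 ± 0.12, adjusted p = 0.345). *Aplnr*, the apelin receptor of veins and sprouts, stood at 155 ± 10.4 and 174 ± 20.6 CPM (0.16 ± 0.08, adjusted p = 0.277).

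The neuropilins, co-receptors for VEGF and semaphorins that stroma also carries, stood on the lower side. *Nrp1* measured 167, 184, 137 and 159.9 CPM in the controls and 133, 149, 142 and 136 CPM in the cKO uteri. Ctrl 3 lay among the cKO uteri and the other controls above them all, and the log2 fold change was -0.21 ± 0.08 (adjusted p = 0.152). *Nrp2*, the co-receptor of lymphatic and venous endothelium, measured 103, 110.1, 81.0 and 100.4 CPM in the controls and 86.6, 86.8, 93.3 and 86.7 CPM in the cKO uteri (-0.16 ± 0.08, adjusted p = 0.283). Here Ctrl 3 was below every cKO uterus and the other controls were above them all. Without Ctrl 3 both were called lower by edgeR, *Nrp1* at -0.28 (adjusted p = 0.0469) and *Nrp2* at -0.24 (adjusted p = 0.0494). In cKO 4 alone against the controls *Nrp1* was at -0.25 (adjusted p = 0.836).

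Of the 10 junction and surface genes, *Plvap* rose and 8 of the other 9 had a log2 fold change above 0 that did not pass the test. *Plvap* encodes the protein of the diaphragms that close endothelial fenestrae and caveolae, and lies at chr8:71497753-71511806. It measured 32.9, 32.1, 30.1 and 32.4 CPM in the controls and 46.2, 44.4, 43.5 and 36.7 CPM in the cKO uteri. All cKO uteri lay above all controls, which spanned a narrow range, and cKO 4 was again the nearest. The log2 fold change was 0.42 ± 0.08 (adjusted p = 0.00647), and 0.39 to 0.49 with any one library left out, called in all 8 fits. In cKO 4 alone against the controls it was 0.20 ± 0.10 (adjusted p = 0.74). The neighbouring gene *Gtpbp3* did not pass the test (0.05 ± 0.06, adjusted p = 0.726). *Vegfd* and *Plvap* were the only 2 of the 36 genes whose groups did not overlap (next to 12.3% of all genes tested, 5.88% with the cKO uteri above and 6.44% below).

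Of the junction genes that define blood endothelium, *Cdh5* had a log2 fold change below 0 and *Pecam1* and *Cldn5* had one above 0. *Cdh5*, the endothelial cadherin, measured 193, 241, 174 and 191 CPM in the controls and 176, 202, 204 and 163 CPM in the cKO uteri (-0.10 ± 0.10, adjusted p = 0.617). Here cKO 4 lay below every control and cKO 1 to 3 lay within them, and without Ctrl 2 the log2 fold change was 0.004. *Pecam1*, the adhesion molecule of endothelium and platelets, measured 168, 189.7, 149 and 160.2 CPM in the controls and 206, 216, 212 and 166 CPM in the cKO uteri. In *Pecam1* cKO 1 to 3 were above every control and cKO 4 was within them (0.26 ± 0.09, adjusted p = 0.1247). The claudin of endothelial tight junctions, *Cldn5*, had cKO 1 to 3 above and cKO 4 below every control, with 57.8, 68.9, 56.7 and 54.2 CPM in the controls and 73.9, 76.9, 74.4 and 53.5 CPM in the cKO uteri (0.23 ± 0.11, adjusted p = 0.266). Without cKO 4, *Pecam1* was at 0.34 (adjusted p = 0.0162) and *Cldn5* at 0.34 (adjusted p = 0.0191) by edgeR. *Pecam1* was also called without Ctrl 2 (0.33, adjusted p = 0.0457).

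*Emcn*, the sialomucin of veins and capillaries, was close between the groups at 68.3 ± 2.30 and 70.4 ± 5.39 CPM, with an interval of -0.08 to 0.17 for the log2 fold change. *Eng*, a TGF-beta co-receptor, was also close, at 155 ± 10.9 and 161 ± 13.4 CPM with an interval of -0.09 to 0.20. *Esam*, an adhesion molecule of endothelial junctions, stood at 82.7 ± 7.21 and 89.6 ± 12.4 CPM with an interval of -0.08 to 0.31. Of the remaining surface genes, *Robo4*, a guidance receptor of endothelium, had a log2 fold change of 0.24 ± 0.12 (adjusted p = 0.27). The lectin *Clec14a* was at 0.16 ± 0.07 (adjusted p = 0.187) and the leukocyte ligand *Icam2* at 0.15 ± 0.10 (adjusted p = 0.416). All 6 overlapped between control and cKO uteri.

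The 4 matrix and secreted genes all had a log2 fold change above 0, and none passed the test (2 higher at an unadjusted p under 0.05, next to 11.4% of all genes). *Egfl7*, a secreted factor that guides vessel tubes, measured 68.0, 76.3, 76.4 and 66.8 CPM in the controls and 89.4, 99.2, 81.8 and 71.8 CPM in the cKO uteri, where cKO 4 alone lay within the controls (0.25 ± 0.09, adjusted p = 0.133). *Mmrn1*, a multimerin of platelets and lymphatic endothelium, stood at 57.7 ± 3.49 and 64.7 ± 4.34 CPM (0.17 ± 0.07, adjusted p = 0.169). Its endothelial relative *Mmrn2* was at 0.21 ± 0.16 (adjusted p = 0.483). *Vwf*, the clotting factor stored in endothelium, was at 0.19 ± 0.16 (adjusted p = 0.535), with controls spread from 10.0 to 17.6 CPM. Its log2 fold change was 0.08 without Ctrl 3 and 0.35 without Ctrl 2. In each of the 4 genes cKO 4 was the lowest of the cKO uteri.

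Both endothelial transcription factors had a log2 fold change above 0, and neither passed the test nor had an unadjusted p under 0.05. *Sox18*, needed for lymphatic specification, measured 29.5, 37.1, 26.7 and 24.1 CPM in the controls and 39.6, 35.2, 36.5 and 29.1 CPM in the cKO uteri (0.26 ± 0.13, adjusted p = 0.28), and was called by edgeR without Ctrl 2 (0.39, adjusted p = 0.0461). *Erg*, an ETS factor of mature endothelium, measured 32.4, 34.3, 32.9 and 31.7 CPM in the controls and 35.5, 42.2, 42.1 and 28.9 CPM in the cKO uteri. In *Erg* cKO 1 to 3 were above every control and cKO 4 below every control (0.18 ± 0.11, adjusted p = 0.346). Without cKO 4 the log2 fold change of *Erg* was 0.29 (adjusted p = 0.0331 by edgeR).

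The 3 genes of venules and of activated endothelium were hardly present, at most 3.13 CPM in any library. None passed the test (1 higher at an unadjusted p under 0.05, next to 11.4% of all genes). The chemokine-binding *Ackr1* measured 0.410, 0.232, 0.178 and 0.302 CPM in the controls and 0.505, 0.602, 0.370 and 0.490 CPM in the cKO uteri, an overlap of the highest control with the lowest cKO uterus. Its log2 fold change of 0.77 ± 0.34 was the highest of the 36 genes but did not pass the test (adjusted p = 0.214). *Ackr1* shares 25.7% of its exon bases with *Cadm3*, so the reads of both genes may not be separable. The selectins for leukocyte capture, *Selp* and *Sele*, stood at 0.21 ± 0.26 (adjusted p = 0.677) and -0.04 ± 0.40 (adjusted p = 0.97), where standard errors this wide leave room for changes in either direction.

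No lymphatic gene passed edgeR's test, DESeq2's or limma-voom's, and 1 was higher at an unadjusted p under 0.05 (next to 11.4% of all genes). The 4 that could be tested had a median log2 fold change of 0.15. *Lyve1*, the hyaluronan receptor of lymphatic vessels and some macrophages, measured 16.5, 22.2, 17.2 and 17.0 CPM in the controls and 26.8, 20.7, 21.3 and 16.7 CPM in the cKO uteri. Ctrl 2 lay among the cKO uteri, and cKO 4 lay within the controls (0.23 ± 0.14, adjusted p = 0.361). With one library left out, the log2 fold change of *Lyve1* ran from 0.11 (without cKO 1) to 0.34 (without Ctrl 2), not called in any fit. The summed level of 10 macrophage genes, which include *Adgre1* and *Csf1r*, overlapped between the groups at 147 to 227 CPM in the controls and 154 to 202 CPM in the cKO uteri. *Prox1*, the lymphatic master factor, measured 8.26, 8.16, 8.27 and 7.60 CPM in the controls and 10.3, 7.46, 9.49 and 8.51 CPM in the cKO uteri (0.15 ± 0.11, adjusted p = 0.495).

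*Flt4*, the receptor of VEGFC and VEGFD, measured 44.7, 44.9, 42.7 and 46.8 CPM in the controls and 54.0, 49.9, 52.6 and 43.4 CPM in the cKO uteri. The controls were tight, cKO 1 to 3 were above them and cKO 4 was within (0.16 ± 0.07, adjusted p = 0.231). Without cKO 4, *Flt4* was called higher by edgeR (0.22, adjusted p = 0.0397). *Pdpn*, the mucin of lymphatic endothelium and of some stromal cells, was the one lymphatic gene below 0, at 25.6 ± 2.11 and 24.3 ± 2.84 CPM (-0.07 ± 0.09, adjusted p = 0.686).

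*Ccl21a*, the chemokine that draws dendritic cells into lymphatic vessels, was counted in 2 libraries only. It had 178 reads in Ctrl 2 (6.88 CPM) and 241 reads in Ctrl 3 (8.60 CPM), and 0 reads in Ctrl 1, Ctrl 4 and all 4 cKO uteri, so that it failed the filter and was not tested. The levels in the controls were thus split within the group. Of the near-identical copies, *Ccl21b* had 1 read in Ctrl 2, 3 reads in Ctrl 3 and 0 in the other libraries, *Gm13304* had 0 reads in every library, and *Gm21541* (Ccl21d in RefSeq) had 0 to 2 reads in each. *Gm10591* had 12, 14, 4 and 3 reads in the controls and 24, 6, 6 and 6 reads in the cKO uteri. How reads that match several genes were counted is not given in the sources used here, and counts for these copies are uncertain.

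Compared per kilobase of exon, so that genes of different length can be set side by side, the control uteri were led by 3 junction and surface genes and the apelin receptor. Levels were 47.5 ± 6.83 CPM per kb (SD, n = 4) for *Cdh5*, 41.9 ± 4.58 for *Cldn5*, 41.9 ± 2.82 for *Aplnr* and 38.2 ± 2.70 for *Eng*, and the ranges of mean ± SD of neighbours in this order overlapped. *Esam* (28.8 ± 2.52 CPM per kb) and *Pecam1* (26.8 ± 2.75) came next. The lowest were *Vwf* (0.831 ± 0.198), *Selp* (0.459 ± 0.170), *Ackr1* (0.1997 ± 0.0712) and *Sele* (0.115 ± 0.0401). The 5 blood endothelial markers *Pecam1*, *Cdh5*, *Emcn*, *Tie1* and *Esam* were present in all 8 libraries, and of the 5 lymphatic markers *Ccl21a* alone was missing from most. On this scale *Vegfd* was below *Vegfc* in the controls (4.82 ± 0.418 against 10.0 ± 0.398 CPM per kb) and nearer to it in the cKO uteri (7.55 ± 1.00 against 10.0 ± 0.530 CPM per kb). Exons were merged over all annotated transcripts, which understates the level of genes with many long isoforms.

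Ratios of counts between 2 genes of the same library are given for some pairs of vascular genes. They were chosen after values were seen and have no test. Most set a called gene against one close between the groups, or 2 genes with log2 fold changes of opposite sign. Lack of overlap in these was therefore largely set by the choice of pairs, and its share over all gene pairs was not computed. The log2 ratio of *Tie1* to *Cdh5* was -1.21, -1.30, -1.05 and -1.13 in the controls and -0.59, -0.72, -0.83 and -1.01 in the cKO uteri, which lay above the controls by 0.38 on average without overlap. The log2 ratio of *Plvap* to *Emcn* was -1.10 ± 0.05 (SD, n = 4) in the controls and -0.72 ± 0.11 in the cKO uteri, again without overlap. The log2 ratio of *Nrp1* to *Kdr* was 0.27 ± 0.06 in the controls and -0.13 ± 0.08 in the cKO uteri, with every cKO uterus, cKO 4 included (-0.03), below every control. The log2 ratio of *Vegfd* to *Vegfc* was -1.09 ± 0.14 and -0.44 ± 0.13, without overlap. In the log2 ratios of *Angpt2* to *Angpt1* and of *Tie1* to *Tek* the groups overlapped.

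Other vascular genes, taken from 5 lists, gave 6 calls among 96 genes by edgeR (6.25%, next to 5.34% of all genes), 4 higher and 2 lower. The lists hold secreted factors and mural genes besides endothelial genes, and RNA of whole uteri does not tell which cells made them. DESeq2 called 15 of the 96 (15.6%, next to 9.04% of all genes), 9 higher and 6 lower, and limma-voom called 5 (5.21%, next to 4.98% of all genes), the 6 of edgeR without *Sema3f*. None of 29 other endothelial genes, such as *Cd34*, *Fli1* and *Nos3*, and none of 12 arterial genes passed the test, with medians of 0.08 and 0.16 and 23 and 9 genes above 0. At an unadjusted p under 0.05, 2 genes of each list were higher (next to 11.4% of all genes), and DESeq2 called 1 arterial gene, *Jag2*, higher. Of 27 further genes of VEGF, angiopoietin and guidance signalling, 2 rose and 2 fell by edgeR's test. DESeq2 called these 4 and 5 more, *Epas1*, *Slit3* and *Thbs2* higher and *Esm1* and *Ackr3* lower; genes called by DESeq2 alone are named after their values were seen. *Slit2*, a secreted guidance cue for receptors of the ROBO family, measured 54.8, 55.1, 52.5 and 66.1 CPM in the controls and 101, 100.4, 105 and 94.4 CPM in the cKO uteri. The cKO uteri were tightly placed and far above the controls (0.81 ± 0.07, adjusted p = 6.28e-05). *Sema3f*, a neuropilin ligand, rose by 0.28 ± 0.07 on the log2 scale (adjusted p = 0.0467), a call that held in 2 of the 8 fits with one library left out.

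On the lower side, *Thbs1*, a secreted inhibitor of angiogenesis, measured 238, 239.6, 216 and 239 CPM in the controls and 102, 131, 160.1 and 152 CPM in the cKO uteri, without overlap (-0.77 ± 0.12, adjusted p = 0.00365). *Sema3c*, another neuropilin ligand, measured 257, 257, 285 and 304 CPM in the controls and 195, 209, 199.3 and 229 CPM in the cKO uteri, also without overlap (-0.41 ± 0.07, adjusted p = 0.00592). In cKO 4 alone against the controls, *Slit2* (0.73, adjusted p = 0.0737) and *Thbs1* (-0.61, adjusted p = 0.0586) did not pass edgeR's test.

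Of 15 further lymphatic genes, 1 rose. This was *Ccbe1*, a secreted protein needed to activate VEGFC, at 18.4, 11.9, 17.2 and 19.1 CPM in the controls and 24.6, 27.4, 31.5 and 24.7 CPM in the cKO uteri. The groups were clear of each other (0.70 ± 0.14, adjusted p = 0.0126), and the call was kept with any one library left out. DESeq2 also called *Reln* higher and *Fgl2* lower in this list. Of 14 genes listed for mural cells, the pericytes around vessels, *Higd1b* alone passed edgeR's test (0.95 ± 0.21, adjusted p = 0.0215). It was at only 0.856 to 1.51 CPM in the controls and 2.10 to 2.86 CPM in the cKO uteri. The call held in 3 of the 8 fits with one library left out. Not all 14 mark pericytes alone, since *Pdgfb* encodes a ligand and *Gja4* is also in the arterial list. The median of the mural list was -0.12, with 10 of its genes below 0, and DESeq2 also called *Heyl* lower.

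**Figure D4:**
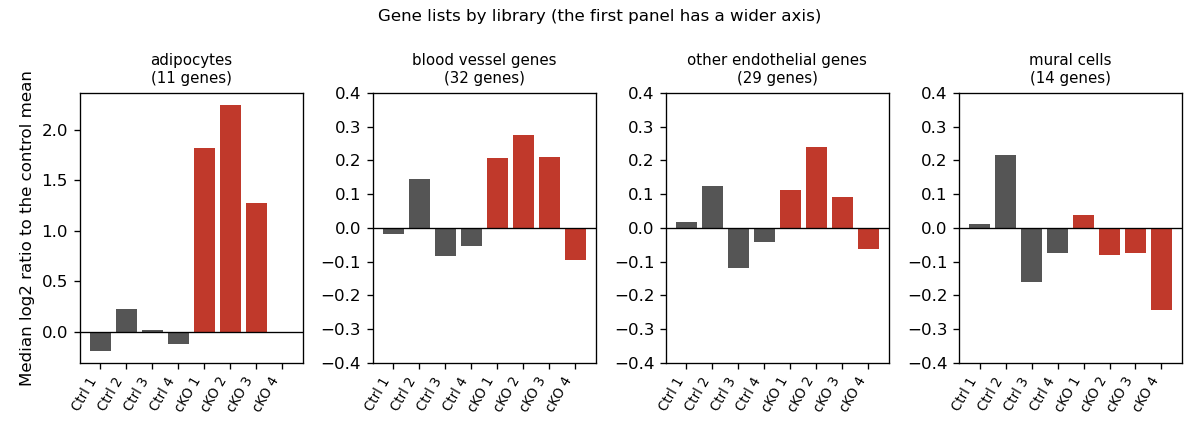
Median log2 ratio to the control mean in each library for adipocyte genes, the blood vessel genes, other endothelial genes and mural cell genes (bars, one per library, the first panel on a wider axis). In the first 3 panels cKO 1 to 3 stand above 0 and cKO 4 is at or below 0, while the mural panel has cKO 4 as its lowest bar.

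The cKO uteri with high adipocyte genes were those with high vessel genes. The median log2 ratio of the 32 blood vessel genes to the control mean was -0.02, 0.15, -0.08 and -0.05 in Ctrl 1 to 4 and 0.21, 0.28, 0.21 and -0.09 in cKO 1 to 4. The 4 lymphatic genes gave 0.02, 0.07, -0.08 and -0.09 in the controls and 0.31, 0.12, 0.23 and -0.09 in the cKO uteri. For the 11 adipocyte genes tested it was -0.19, 0.23, 0.02 and -0.13 in the controls and 1.82, 2.25, 1.27 and -0.02 in the cKO uteri. In all 3 lists cKO 4 lay within the range of the controls or next to it. The pattern was not particular to adipocyte genes. For the 7 stroma genes the median was 0.09, 0.17, -0.22 and -0.09 in the controls and 0.41, 0.25, 0.14 and -0.10 in the cKO uteri. Of the adipocyte genes *Adrb3* and *Pparg*, named after their values were seen, passed edgeR's test, both higher. At an unadjusted p under 0.05, 10 of the 11 tested were higher, next to 11.4% of all genes. DESeq2 called 8 of the 11, all higher, *Adipoq* and *Plin1* among them, and limma-voom called *Adrb3* alone. By edgeR *Adipoq* (6.07 ± 1.47, adjusted p = 0.0699) and *Plin1* (5.98 ± 1.5, adjusted p = 0.0765) did not pass.

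The mean log2 CPM of the adipocyte list was -0.54 to 0.08 in the controls, 2.35 to 3.23 in cKO 1 to 3 and -0.35 in cKO 4. A fit with it as a covariate therefore rests on cKO 4 for the difference between groups, much as the fit of cKO 4 alone against the controls does, and is no test of adipose tissue. In it none of the 36 genes was called (2 higher and 3 lower at an unadjusted p under 0.05), 8 were above 0 and the median was -0.09, while 0.654% of all genes were called. *Vegfd* was then at 0.41 ± 0.14 (adjusted p = 0.331), *Plvap* at 0.23 ± 0.09 (adjusted p = 0.44) and *Tie1* at -0.11 ± 0.08 (adjusted p = 0.82). Of the other vascular genes *Slit2* alone kept its call by edgeR (0.76 ± 0.11, adjusted p = 0.00905), while the others lost it at 0.66 for *Ccbe1*, 0.85 for *Higd1b*, 0.11 for *Sema3f*, -0.61 for *Thbs1* and -0.28 for *Sema3c* on the log2 scale. The part of adipose tissue in the levels of the vessel genes was not tested.

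Genes of other cells were measured alongside. Platelet genes (8 genes, among them *Pf4* and *Ppbp*) summed to 16.6 to 20.8 CPM in the controls and 29.2, 26.3, 24.7 and 20.5 CPM in cKO 1 to 4, and *Itga2b* was called higher (0.49 ± 0.13, adjusted p = 0.0408). *Pf4* and *Itga2b* made up most of these sums, *Ppbp* was at most at 0.493 CPM, and only 4 of the 8 genes could be tested. Red blood cell genes such as *Hbb-bs* and *Hba-a1* summed to 130.0 CPM in cKO 1 and to 21.6 to 49.4 CPM in the other 7 libraries. Genes of stroma (*Pdgfra*, *Dcn*) gave 2 calls of 7, *Col3a1* higher and *Hoxa11* lower. Their sum, of which *Col3a1* made up the most, was 8251 to 10743 CPM in the controls and 12647, 12672, 12573 and 9891 CPM in cKO 1 to 4, and 5 of the 7 were lowest in cKO 4 among the cKO uteri. Genes of skeletal muscle (*Ckm*, *Acta1*) gave 1 of 6, *Tnnt3*, higher. The called genes named in this paragraph were named after their values were seen. None of 7 epithelial (*Epcam*, *Cdh1*), 7 mesothelial (*Msln*, *Upk3b*), 7 smooth muscle (*Myh11*, *Acta2*), 10 macrophage and 6 red blood cell genes was called by edgeR. In these lists 2, 1, 2, 1 and 0 genes had an unadjusted p under 0.05, next to 11.4% of all genes higher and 9.86% lower. DESeq2 called 1 mesothelial and 1 smooth muscle gene, *Krt19* and *Des*, and also the stromal *Col1a1* and the muscle gene *Mylpf*, all higher. By limma-voom *Itga2b* and *Col3a1* were not called. The part of these cells in the levels of the vessel genes was not tested.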

How the data were processed

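RNA-seq libraries (TruSeq stranded mRNA) were made from whole uteri at PD10, 4 control and 4 cKO mice. Per the labels, the tools were Trimmomatic, FastQC, HISAT2 (build GRCm38) and featureCounts, and the authors deposited raw counts per Entrez gene; annotation release, strand setting and treatment of multi-mapping reads are not given in the sources used here, so overlapping genes and near-identical copies are uncertain. The deposited comparison columns (log2 fold changes, log2 CPM, F, p-values) were not used, only identifiers and symbols.

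Genes above 0.2 CPM in 4 or more libraries were compared from their counts with edgeR 4.0.16 (TMM, glmQLFit and glmQLFTest with robust = TRUE, prior count 0.125; R 4.3.3), and p-values were adjusted by Benjamini-Hochberg over all 16658 genes. "Called" means an adjusted p under 0.05. A standard error is the log2 fold change over the square root of F. Alternatives used DESeq2 1.42.0, limma 3.58.1, other scalings and filters, libraries left out, and adipocyte covariates. The edgeR step was tested on simulated data. The members and lists were chosen with earlier results of these data known. The text names all members, up to 3 called genes per vascular list and direction, and the first 2 genes of each list of other cells; 1 such list is not reported here. Exon lengths came from GENCODE M21.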

Additional observations from a re-analysis of the deposited data

Results flagged for a closer look

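In 86 groups of 4 libraries (43 genes, control and cKO), 5 had 1 library that stood far from the other 3 by Dixon's criterion, which chance meets in about 1 of 20 groups, so this number is near what chance gives. *Cldn5* was at 53.5 CPM in cKO 4 against 73.9 to 76.9 CPM in the other cKO uteri, and *Nrp2* was at 93.3 CPM in cKO 3 against 86.6 to 86.8 CPM. Among controls, *Lyve1* was at 22.2 CPM in Ctrl 2 against 16.5 to 17.2 CPM, *Prox1* at 7.60 CPM in Ctrl 4 against 8.16 to 8.27 CPM, and *Thbs1* at 216.0 CPM in Ctrl 3 against 238 to 239.6 CPM. The *Cldn5* library is the one that was lowest in most endothelial genes.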

How the results depend on the processing

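*Vegfd* and *Plvap* kept their direction and call under other scalings (DESeq2 size factors, upper quartile), DESeq2, limma-voom, robust = FALSE, both other filters, a prior count of 2 and each library left out. They lost the call, at the same direction, with the adipocyte covariate, with *Adipoq*, *Plin1* and *Cidec* alone as a covariate (added after seeing the data) and with cKO 4 alone. In these 3 fits the blood vessel genes called higher fell from 2 to 0, and the other vascular genes called went from 4 higher and 2 lower to 1 and 0 with either covariate and to 0 and 0 with cKO 4 alone, while the share of all genes called fell from 5.34% to 0.654%, 0.702% and 0.228%. With a fold over 2 required, all these counts were 0. The cause of these losses was not tested.

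With one library left out, blood vessel genes called ranged from 2 to 10 higher and from 0 to 2 lower, lymphatic genes from 0 to 1 higher and 0 lower, and other vascular genes from 2 to 14 higher and 2 to 3 lower, while 2.55% (without Ctrl 1) to 10.7% (without cKO 4) of all genes were called. The highest counts came without cKO 4 (10, 1 and 14). Without Ctrl 2 (5.71% of all genes) they were 4 blood vessel and 8 other vascular genes higher, without Ctrl 3 there were 2 blood vessel genes lower, and without Ctrl 1, Ctrl 3, cKO 1 or cKO 3 only 2 other vascular genes were higher. DESeq2 called 9 other vascular genes higher and 6 lower (15.6% of 96, next to 9.04% of all genes). With the replicate block (7.44% of all genes called), 3 blood vessel genes were higher (*Vegfa* added, 0.38, adjusted p = 0.0277) and 4 other vascular genes lower. Deviations of same-numbered libraries correlated at 0.02, 0.11, 0.00 and 0.19. The labels give only a number, and these values cannot decide whether same-numbered libraries belong together. Precision was lowest for *Ackr1*, *Selp* and *Sele*, the genes with the lowest counts, whose standard errors were 0.34, 0.26 and 0.40 on the log2 scale.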
